A study of Macaca fascicularis with 44 samples.

Results

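The genes described here are 63 of the 17293 gene identifiers counted in the series, chosen because their level in the dentate gyrus was patchy: far higher in 1 or a few libraries than in the median library. The measure was CPM, the count of a gene scaled to the reads assigned to genes in its library. Members were selected on these CPM values. A gene was a member where its highest CPM over 21 dentate gyrus libraries was at least 5 and at least 10 times its median over the same 21 libraries, and where its median was under 2 CPM in the basolateral amygdala and under 2 CPM in the anterior cingulate cortex. The values that chose the members are therefore given as a description, and the tests below use the same dentate values. The working description of the set as RNA of neighbouring tissue could not be checked against cell type markers, because the files pair no identifier with a gene name and 0 of the 17293 identifiers matched the reference table used here; the set is called by its rule.

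The study sequenced brain tissue of female long-tailed macaques, Macaca fascicularis, given the glucocorticoid betamethasone or saline. The 44 libraries came from 4 regions: the anterior dentate gyrus (aDG; 5 betamethasone and 6 saline libraries), the posterior dentate gyrus (pDG; 5 and 6), the basolateral amygdala (BLA; 4 and 6) and the anterior cingulate cortex (ACC; 6 and 6). The labels give no age, dose, route, duration or dissection method, and do not say which libraries came from the same animal. Libraries are named by region, treatment and a replicate number that only follows the order of deposit, and each also has a title number in its label. The library aDG saline 5 was left out by the rule, and its profile over 13447 genes correlated more with the BLA median (Pearson r = 0.982) than with the aDG median (r = 0.954), so its values are given separately.

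The dentate gyrus is the part of the hippocampal formation where granule cells receive cortical input and pass it to area CA3. It lies against other hippocampal fields, the lateral ventricle with its choroid plexus, the meninges and large vessels, so that a dissected block can hold different amounts of tissue that is not dentate gyrus. Betamethasone is a synthetic agonist of the glucocorticoid receptor, which changes transcription in neurons and glia. In bulk tissue, fewer cells of a type and less RNA per cell cannot be told apart.

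The 44 libraries held between 28449737 and 83322595 reads assigned to genes, with a median of 44944904. Over the 63 genes the highest dentate CPM ran from 5.04 to 94.3, with a median of 11.6, while the median over the 21 libraries ran from 0.042 to 2.01 CPM. The highest value was 10.3 to 487 times the median. In 17 genes 1 library reached 10 times the median, in 39 genes 2 libraries did, and in 7 genes 3 libraries did, which was the most. The 2 genes closest above the limit of 10 were ENSMFAG00000035912, at 10.3 times its median with a highest value of 20.6 CPM, and ENSMFAG00000034169, at 10.5 times with 16.2 CPM. Closest below it were ENSMFAG00000031043, at 9.91 times with 6.58 CPM, and ENSMFAG00000045000, at 9.33 times with 8.79 CPM. All 4 of these were highest in the same library, pDG betamethasone 1, so the limit cut through a graded series of genes with that pattern.

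The highest values were concentrated in few libraries. Of the 63 genes, 39 were highest in pDG betamethasone 1, 11 in pDG saline 5, 4 each in aDG saline 4 and aDG saline 6, 3 in aDG saline 3, and 1 each in aDG betamethasone 4 and pDG betamethasone 2. Grouping the genes by the correlation of log2(CPM + 0.1) over the 21 libraries, with average linkage at a distance of 0.5, gave a first group of 39 genes, a second of 11 and 8 small groups that hold the other 13 genes. The heat map of the 63 genes shows the first group as a bright column in 2 dentate libraries, the second as a graded pattern over several libraries, and the 13 others as separate patterns.

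**Figure D1:**
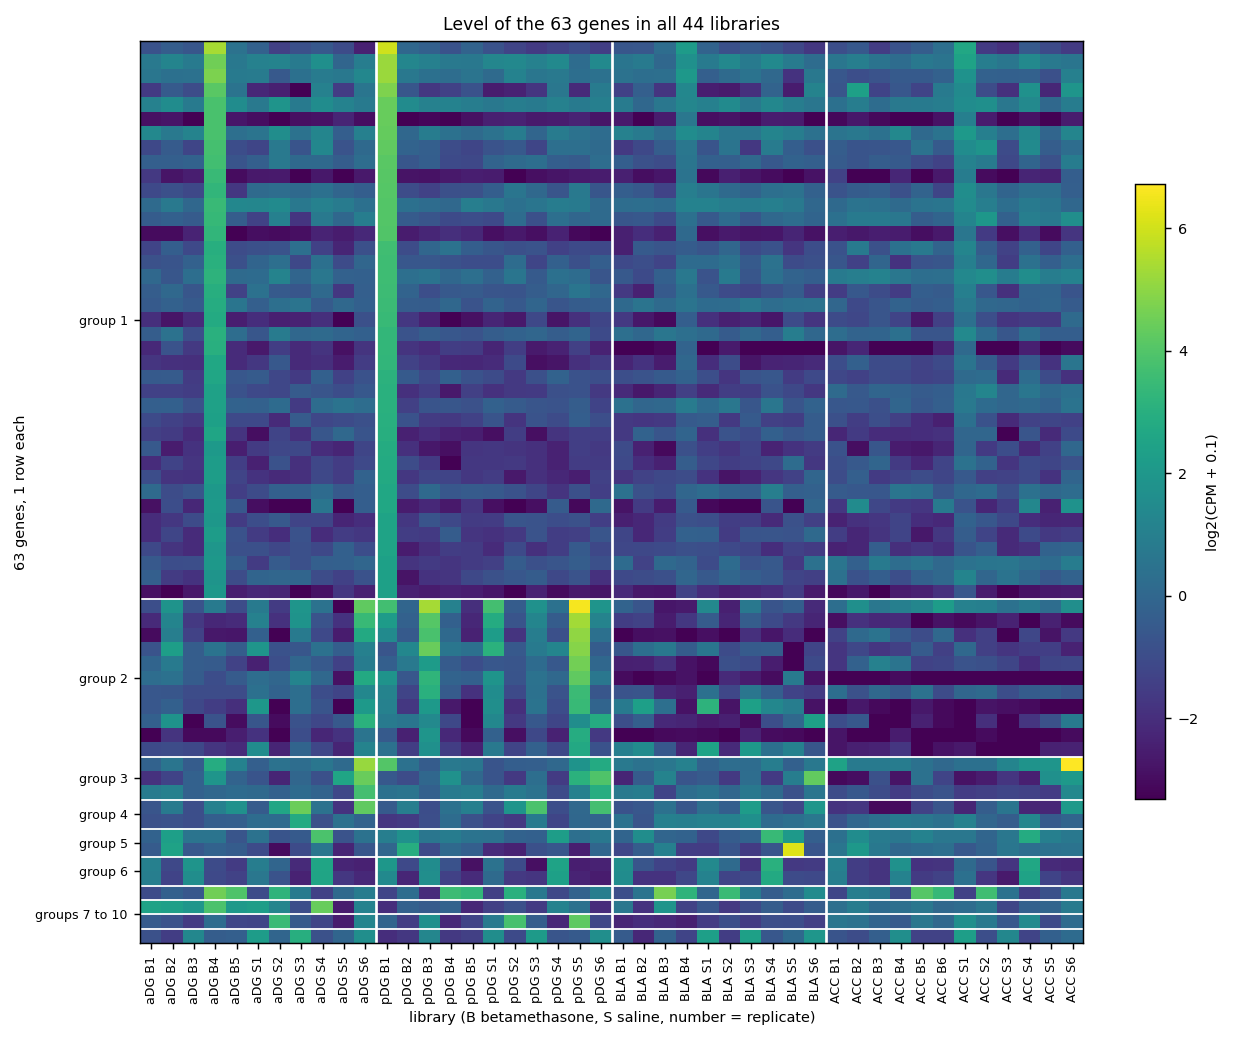
Heat map of log2(CPM + 0.1) for the 63 genes (rows, ordered by correlation group) in the 44 libraries (columns; B betamethasone, S saline, number the replicate). The 39 genes of group 1 are bright in aDG B4 and pDG B1 and the 11 genes of group 2 mainly in pDG S5 and pDG B3, while the 13 genes of groups 3 to 10 have various high libraries, some of these included.

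The first group was high in pDG betamethasone 1 and in aDG betamethasone 4. These were the 2 highest of the 21 dentate libraries in 39 of the 39 genes, a description, since the genes were selected and grouped on these values. The levels ran from 5.04 to 62.7 CPM in pDG betamethasone 1, with a median of 10.9, and from 3.57 to 42.6 CPM in aDG betamethasone 4, with a median of 7.68. The highest of the other 19 dentate libraries was only 0.098 to 3.60 CPM, with a median over the genes of 1.05, and the lower of the pair exceeded it by 3.04 to 146 times. Of the 39 genes, 31 were at or above 10 times their median in both libraries.

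The leading gene of this group was ENSMFAG00000032558. In the aDG it had 0.480, 0.680, 0.545, 42.6 and 1.27 CPM in betamethasone libraries 1 to 5, and 0.777, 0.278, 0.447, 0.574 and 0.0905 CPM in saline libraries 1 to 4 and 6. In the pDG it had 62.7, 0.910, 0.735, 0.472 and 0.828 CPM in betamethasone libraries 1 to 5, and 0.227 to 0.482 CPM in the 6 saline libraries, with a median of 0.308. A single library per dentate part stood far above the rest, and the other 4 betamethasone libraries of each part overlapped or lay close to the saline libraries. ENSMFAG00000036375 reached 37.1 CPM in pDG betamethasone 1 and 23.2 CPM in aDG betamethasone 4, with 1.08 to 3.11 CPM in the other 19. This gene was thus measurable in every dentate library, whereas ENSMFAG00000039733, singled out after its values were seen for the largest ratio to its median, was near the floor outside the pair. It had 20.5 and 14.3 CPM in the pair and 0 to 0.0978 CPM in the other 19. Of the 39 genes, 4 had a median under 0.1 CPM and 6 a median of 1 CPM or more, so the level outside the pair differed widely within the group.

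The levels in the pair kept an almost fixed proportion. Dividing the CPM in aDG betamethasone 4 by that in pDG betamethasone 1 gave 0.581 to 0.841, with a median of 0.679, while the level itself varied 12.5 times between the genes. All 39 ratios lay within 1.3 times their median. The plot of one library against another shows the 39 genes along one line below equality. Over the 21 libraries the pairwise Pearson r of the 39 genes was 0.443 to 0.972, with a median of 0.866; these correlations rest on the same pair of libraries.

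**Figure D2:**
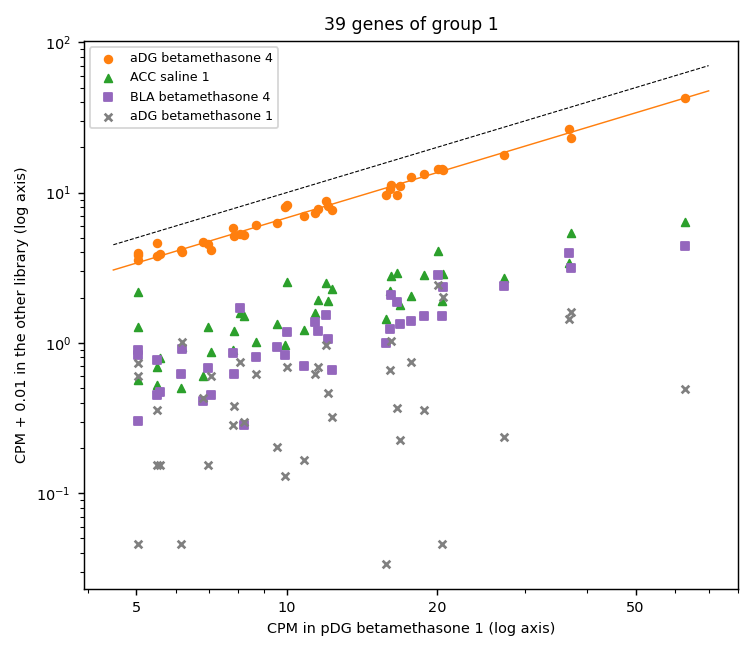
CPM of the 39 genes of group 1 in 4 libraries (vertical, with 0.01 added, log axis) against their CPM in pDG betamethasone 1 (horizontal, log axis); the dashed line marks equality and the orange line the median ratio of 0.679. The aDG betamethasone 4 points follow the orange line, the ACC saline 1 and BLA betamethasone 4 points lie lower, and the aDG betamethasone 1 points show a library at the usual level.

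Summed over the 39 genes, pDG betamethasone 1 held 549 CPM and aDG betamethasone 4 held 373 CPM. Every other dentate library held 19 to 35.4 CPM, betamethasone and saline alike. Title numbers of aDG and pDG libraries run in parallel, 31 apart, and the libraries at that distance from the pair were ordinary: aDG betamethasone 1 held 22.2 CPM and pDG betamethasone 4 held 19 CPM. The left-out library had 0 to 2.11 CPM of each of these genes. The pair did not stand out in depth, with 34343577 and 52059393 reads assigned to genes, but its unmapped share of 16.6% and 16.8% ranked 3 and 2 from the top among the 21 dentate libraries, whose range was 11% to 31.4%. Whether that share had a part in the pattern was not tested.

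The rule used only the medians of the other 2 regions, so single libraries there could take any value. ACC saline 1 had the highest level of the 12 ACC libraries in 24 of the 39 genes, against 5.91% of the 14111 genes that reached 1 CPM in any dentate library. BLA betamethasone 4 had the highest level of the 10 BLA libraries in 21 of the 39, against 7.72%. The summed level was 75.1 CPM in ACC saline 1, above 20.1 to 41.8 CPM in the other 11 ACC libraries, and 51.3 CPM in BLA betamethasone 4, above 18.9 to 30.0 CPM in the other 9 BLA libraries. ENSMFAG00000032558 had 6.33 CPM in ACC saline 1 and 0.162 to 1.18 CPM in the other ACC libraries, and 4.43 CPM in BLA betamethasone 4 against 0.211 to 1.10 CPM in the other BLA libraries. The excess over the median of the other libraries, as a fraction of the excess in pDG betamethasone 1, had a median of 0.0947 in ACC saline 1 (range -0.021 to 0.300) and 0.0488 in BLA betamethasone 4 (0.0078 to 0.0997). The summed level was thus highest in 1 library of each region, in 3 betamethasone libraries and 1 saline library, but single genes did not all follow: ENSMFAG00000045130, chosen after its values were seen, had 2.71 CPM in ACC saline 1 and 5.15 CPM in ACC betamethasone 2.

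In the order aDG, pDG, BLA and ACC, the title numbers of these 4 libraries were 21, 42 and 21 apart. None of the other 40 libraries has a title number at a multiple of 21 from them. The spacing was looked for after the libraries were known, the labels do not say what the numbers stand for, and its part in the pattern was not tested.

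The pattern was not limited to the 63 genes. In 117 of the 17293 genes both pDG betamethasone 1 and aDG betamethasone 4 were at or above 1 CPM and at least 3 times the highest of the other 19 libraries, and 39 of these were members. Among the 78 others, 49 stayed under 5 CPM, 16 reached 5 CPM but not 10 times their median, and 22 had a BLA or ACC median of 2 CPM or more, with some genes in more than 1 of these classes. Their ratio of aDG betamethasone 4 to pDG betamethasone 1 was 0.469 to 1.02, with a median of 0.719, and the highest of them had 105.5 CPM in pDG betamethasone 1. The 39 genes of the first group were thus the part of a longer list that also met the other limits of the rule. The members of the other groups were not on that list.

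**Figure D3:**
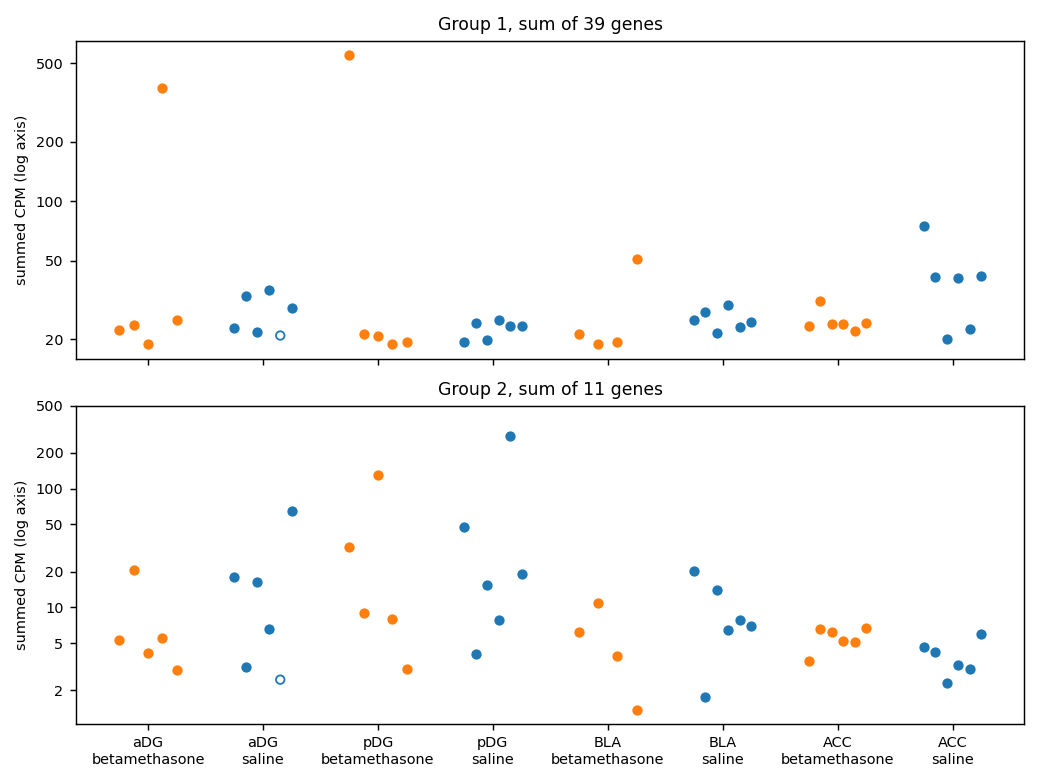
Summed CPM (log axis) of the 39 genes of group 1 (top) and the 11 genes of group 2 (bottom), 1 point per library by region and treatment; the open point is the left-out library. Group 1 stands apart in 1 aDG and 1 pDG betamethasone library (373 and 549 CPM), with lesser rises in 1 BLA (51.3 CPM) and 1 ACC library (75.1 CPM), and group 2 spreads over the dentate libraries up to 279 CPM.

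The second group of 11 genes varied by degrees. Of these, 10 were highest in pDG saline 5 and 1, ENSMFAG00000033164 was highest in aDG saline 6. Their summed level was 279 CPM in pDG saline 5, 129 CPM in pDG betamethasone 3, 65.4 CPM in aDG saline 6, 47.7 CPM in pDG saline 1 and 32.0 CPM in pDG betamethasone 1. The other 16 dentate libraries held 2.99 to 20.6 CPM and the left-out library 2.46 CPM. Both treatments and both dentate parts were among the high libraries, and libraries of each were among the low ones. The BLA libraries held 1.37 to 20.2 CPM and the ACC libraries 2.29 to 6.69 CPM.

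ENSMFAG00000044692 had the highest level of all 63 genes. It had 0.432, 3.47, 0.486, 1.65 and 0.397 CPM in aDG betamethasone libraries 1 to 5 and 1.64, 0.235, 3.67, 1.29 and 19.1 CPM in aDG saline libraries 1 to 4 and 6. In the pDG it had 12.6, 0.864, 41.5, 2.01 and 0.154 CPM in betamethasone libraries 1 to 5 and, in the 6 saline libraries, 0.659 CPM at the lowest, 94.3 CPM at the highest and a median of 3.41. The treatment groups overlapped in both dentate parts. ENSMFAG00000030646 followed the same order with 39.8 CPM in pDG saline 5, 16.8 CPM in pDG betamethasone 3, 10.9 CPM in aDG saline 6, 7.02 CPM in pDG saline 1 and 4.40 CPM in pDG betamethasone 1. Across the 11 genes the level in pDG saline 5 was 1.14 to 5.30 times that in pDG betamethasone 3, with a median of 2.07, a looser proportion than in the first group.

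ENSMFAG00000039111 was named as an example of the set but did not meet the rule, since its ACC median was 2.35 CPM, above the limit of 2; its BLA median was 0.301 CPM. It was far more abundant than the members, at 4425 CPM in pDG saline 5, 45.7 times its dentate median of 96.7 CPM. Next came pDG betamethasone 3 with 1572 CPM, aDG saline 6 with 804 CPM, pDG saline 1 with 750.2 CPM and pDG betamethasone 1 with 479.9 CPM, the same 5 libraries in the same order as the summed second group. The range was continuous below them: aDG saline 3, pDG saline 3, aDG betamethasone 2, aDG saline 1 and pDG saline 6 had 395, 316, 292, 226 and 155 CPM. The lower libraries were pDG betamethasone 4 with 96.7 CPM, pDG saline 4 with 76.8 CPM, pDG betamethasone 2 with 69.2 CPM, aDG saline 4 with 40.0 CPM and pDG saline 2 with 29.3 CPM. At the foot, pDG betamethasone 5 and aDG betamethasone 3, 5, 4 and 1 had 4.48, 3.91, 3.86, 1.08 and 0.90 CPM, and aDG saline 2 had 0.214 CPM. The left-out library had 0.633 CPM, the BLA libraries 0 to 8.41 CPM and the ACC libraries 0.805 to 6.09 CPM.

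The 3 members most like it were ENSMFAG00000030508, ENSMFAG00000030646 and ENSMFAG00000044692, with Pearson r of 0.937, 0.930 and 0.859 for log2(CPM + 0.1) over the 21 libraries. Over all 11 genes of the second group r was 0.539 to 0.937, with a median of 0.801, and over the 39 genes of the first group it was -0.264 to 0.112. Apart from ENSMFAG00000039111 itself, 3 of the 12233 genes that reached 5 CPM in a dentate library had r of 0.9 or more, and 2 of those 3 were members. The ordered plot shows the 3 members rising with it along the libraries. The points of these correlations are whole libraries, and their order was the basis of the grouping, so they are a description.

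**Figure D4:**
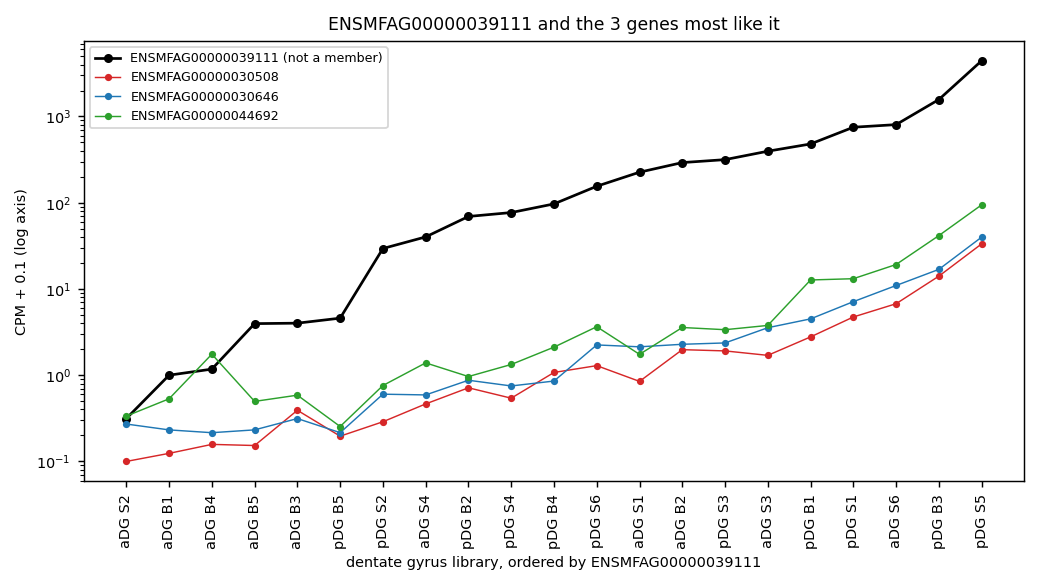
CPM with 0.1 added (log axis) of ENSMFAG00000039111 and of the 3 members most like it, in the 21 dentate gyrus libraries ordered by the level of ENSMFAG00000039111 (B betamethasone, S saline, number the replicate). All 4 lines reach their highest point in pDG S5, where ENSMFAG00000039111 has 4425 CPM and ENSMFAG00000044692 has 94.3 CPM.

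The other 13 genes had high libraries that followed the title numbers. Title numbers of the 4 regions run in parallel, with an offset that shifts by 1 within the BLA and within the ACC, so libraries were put into 10 sets by title number, 9 of them with 1 library of each region, and a set is named here by its aDG library; the labels do not say that a set is an animal. Over the 9 full sets, the highest aDG library and the highest pDG library belonged to the same set in 12 of the 13 genes. The same held for 0 of the 39 genes of the first group, for 2 of the 11 of the second and for 28.7% of the 12233 genes that reached 5 CPM. These groups were formed on dentate values, so that count is a description. The same set was highest in all 4 regions in 5 of the 13 genes and in 6 of all 63 (9.52%), the latter near the 7.73% of the 12233. In the BLA and ACC alone, whose values were not used beyond their medians, the same set was highest in 5 of the 13 genes (38.5%) and in 14 of the 63 (22.2%), against 29.7% of the 12233. Over the whole set these shares were thus near or below those of all genes.

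ENSMFAG00000040177 showed this over 3 sets. In the set of aDG betamethasone 4 it had 23.0 CPM in the aDG, 11.6 in the pDG, 25.2 in the BLA and 16.6 in the ACC. In the set of aDG betamethasone 5 it had 15.2, 9.78, 9.18 and 10.4 CPM in the same order, and in the set of aDG saline 2 it had 9.19, 8.22, 11.2 and 12.3 CPM. No other library of any region exceeded 2.79 CPM, so the 12 libraries of these sets did not overlap with the rest. ENSMFAG00000024075 and ENSMFAG00000030155, singled out after their values were seen, peaked together in the set of aDG saline 4. ENSMFAG00000024075 had 5.88, 5.60, 8.06 and 6.27 CPM there in the aDG, pDG, BLA and ACC, and ENSMFAG00000030155 had 5.74, 5.06, 6.82 and 5.45 CPM. Both were at intermediate levels in the sets of aDG betamethasone 1 and aDG saline 1, with 1.01 to 3.90 CPM and 1.02 to 2.86 CPM, in the dentate pair of aDG betamethasone 3, and in ACC betamethasone 4, a library of no set, with 3.24 and 2.10 CPM. These 3 genes thus took similar levels in the 4 libraries of the sets where they were highest.

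**Figure D5:**
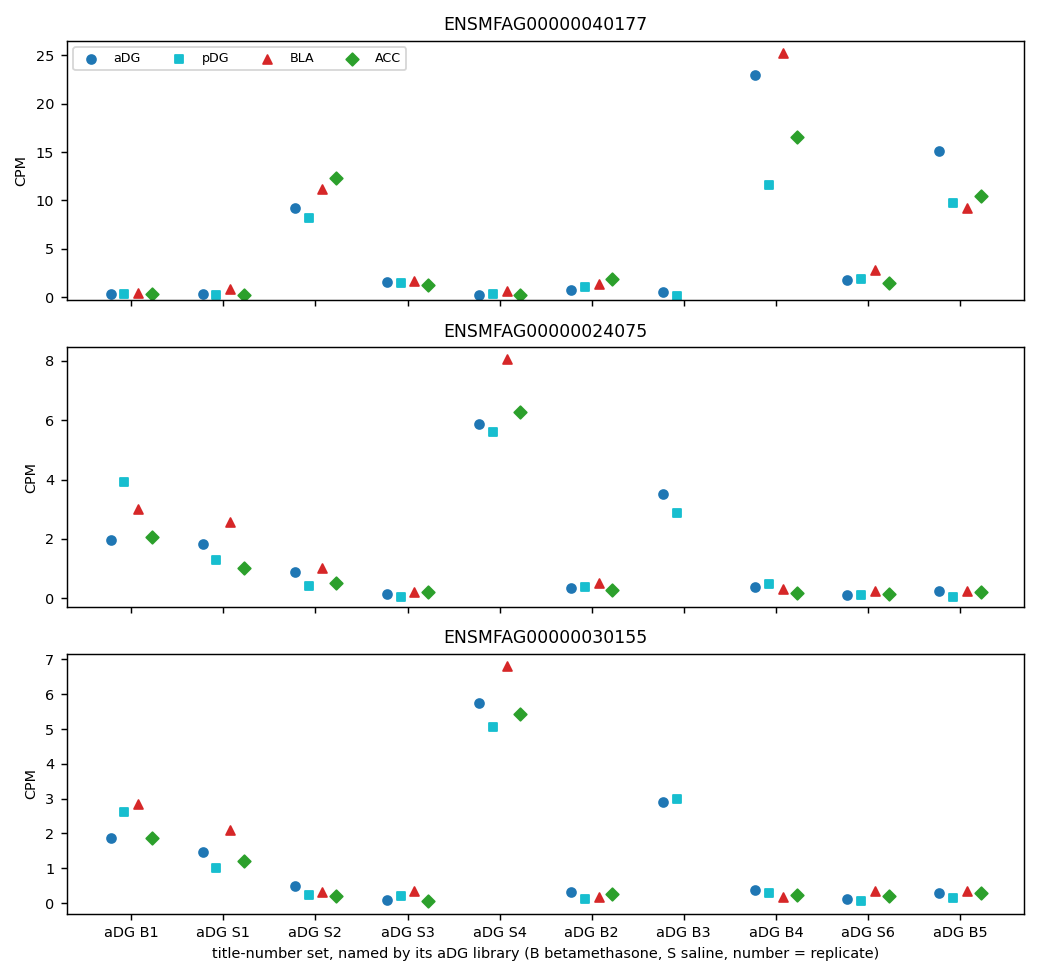
CPM of 3 genes by title-number set (horizontal, named by the aDG library; B betamethasone, S saline), 1 point per library and region; the set of aDG B3 has only its aDG and pDG libraries. ENSMFAG00000040177 is high in the 4 libraries of each of the sets of aDG S2, B4 and B5 (8.22 to 25.2 CPM), and the other 2 genes are highest in the 4 libraries of the set of aDG S4.

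Several genes combined such a set with a single raised library. ENSMFAG00000041799 had 35.9 CPM in aDG saline 6 and 6.95 CPM in pDG saline 6, both of the set of aDG saline 6, and 104.6 CPM in ACC saline 6, but only 1.5 CPM in BLA saline 6. It was also raised in the pair of the first group, with 16.4 CPM in pDG betamethasone 1 and 7.26 CPM in aDG betamethasone 4. ENSMFAG00000031821 had 21.3, 15.5, 19.5 and 4.09 CPM in the aDG, pDG, BLA and ACC libraries of the set of aDG saline 6, and 8.39 CPM in pDG saline 5. It also had the highest level of any member in the left-out library, 5.91 CPM; 56 of the 63 genes had under 1 CPM there. ENSMFAG00000037060 had 5.33 CPM in aDG betamethasone 2, 7.46 CPM in pDG betamethasone 2 and 3.93 CPM in ACC betamethasone 2, all of the set of aDG betamethasone 2, but 0.669 CPM in BLA betamethasone 2 of that set. It had 74.8 CPM in BLA saline 5, whose title number is parallel to that of the left-out library. ENSMFAG00000000188 was highest in the set of aDG saline 4, with 14.3, 4.64, 10.8 and 7.20 CPM in the aDG, pDG, BLA and ACC. In all, 10 of the 63 genes reached 5 CPM in a BLA library and 8 did in an ACC library, although their medians there were under 2 CPM.

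Reads on the opposite strand were a larger share for these genes than for others. The share of opposite-strand reads exceeded 50% in 4 of the 63 genes, against 0.793% of the 12233 genes that reached 5 CPM, and its median was 1.11% against 0.210%. The 4 genes were ENSMFAG00000038605 with 95.4%, ENSMFAG00000000103 with 93.4%, ENSMFAG00000040211 with 79.8% and ENSMFAG00000042957 with 58.6%, named after their values were seen. Reads of an overlapping gene on the other strand can enter such a count, and their source was not tested. The 2 sets of genes were not matched for level, and the members had dentate medians of only 0.042 to 2.01 CPM. Whether level had a part in the shares was not tested.

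Betamethasone was compared with saline in each dentate part by edgeR's quasi-likelihood test over all genes tested. The rule did not use treatment, but it used the same dentate values. Shares and signs among the members are therefore a description. In the aDG, 0 of the 55 members that passed the filter on low counts had an adjusted p under 0.05, where 0.00691% of all 14480 genes did; the unadjusted p was under 0.05 in 12 members (21.8%) and in 4.27% of all genes. In DESeq2, 0 of the 26 members with an adjusted p were called, where 0.272% of all genes were. In the pDG, edgeR called 0 of 52 members, where 0.00693% of 14427 genes were called. Its unadjusted p was under 0.05 in 26 members (50%) and in 8.72% of all genes. DESeq2 called 0 of the 21 members with an adjusted p, where 0.613% of all genes were called. In both parts DESeq2 gave the other members no adjusted p, so they could not be called. Over those left, its median log2 difference was -0.22 in the aDG and -0.68 in the pDG. The edgeR medians were 1.03 and 1.64, so the DESeq2 counts of 0 leave out many members. The member with the smallest p in the aDG was ENSMFAG00000032558, with a log2 difference of 4.33 ± 1.34 (SE) and an edgeR adjusted p of 0.843. Without aDG betamethasone 4 its log2 difference was 0.76. In the pDG it was ENSMFAG00000031774, another gene of the first group, with 2.89 ± 0.77 (SE) and an edgeR adjusted p of 0.349; without pDG betamethasone 1 its log2 difference was 0.99.

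The fitted differences of the first group were positive throughout, and most of them depended on 1 library in each dentate part. The rule and the grouping used those libraries, so the signs are a description. With no filter, 39 of 39 genes had a positive log2 difference in the aDG, with a median of 1.46, and 39 of 39 in the pDG, with a median of 2.18, none of them called. With the filter but without aDG betamethasone 4, 4 of the 32 genes of this group tested in the aDG were positive, with a median of -0.34. Without pDG betamethasone 1, 10 of the 29 tested in the pDG were positive, with a median of -0.24. Over the tested members of every group the median log2 difference was 1.03 in the aDG, against 0.016 over all genes, and it was -0.46 without aDG betamethasone 4. In the pDG it was 1.64, against 0.018 over all genes, and -0.39 without pDG betamethasone 1, where 7 of 53 members (13.2%) and 10.8% of all genes had an unadjusted p under 0.05. The second group pointed the other way, with 10 of 11 log2 differences below 0 in the aDG (median -2.02) and 11 of 11 in the pDG (median -0.69), and none was called. All 11 genes were highest in a saline library, 10 of them in pDG saline 5, which is not part of the aDG comparison. The rule and the grouping used the dentate values, so these signs are a description. Without pDG saline 5, 9 of the 10 genes tested had a positive difference in the pDG, with a median of 0.97. Without aDG saline 6, 7 of the 10 tested in the aDG were below 0, with a median of -0.60.

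ENSMFAG00000039111 did not pass either. Its log2 difference for betamethasone was -2.29 ± 1.87 (SE) in the aDG, with an edgeR adjusted p of 0.9998, and -1.05 ± 1.47 in the pDG, with an edgeR adjusted p of 0.861. The pDG difference was 0.75 without pDG saline 5, so that 1 library set its direction. ENSMFAG00000040177, which was high in 2 betamethasone sets and 1 saline set, had a log2 difference of 1.57 ± 1.18 (SE) in the aDG and 1.12 ± 1.08 in the pDG, with edgeR adjusted p of 0.9998 and 0.784.

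The aDG was compared with the pDG over the 21 libraries with treatment in the model. The rule did not use this contrast, but it used the same dentate values. Of 53 members tested by edgeR 1 was called, where 3.9% of all 14416 genes were; with 53 members this is near the background and says nothing particular about the set. DESeq2 called 1 of the 25 members with an adjusted p, where 6.73% of all genes were called. This gene was ENSMFAG00000003253. It had 5.42, 5.0, 3.77, 14.7 and 4.10 CPM in aDG betamethasone libraries 1 to 5 and 4.69, 2.25, 0.415, 20.8 and 2.11 CPM in aDG saline libraries 1 to 4 and 6. In the pDG it had 0.146, 0.773, 0.638, 0.786 and 0.116 CPM in betamethasone libraries 1 to 5, and 0.143 to 2.07 CPM in the 6 saline libraries. Of the 10 aDG libraries 9 lay above the highest pDG library, and aDG saline 3 lay within the pDG range. The log2 difference, aDG minus pDG, was 3.32 ± 0.58 (SE), with an edgeR adjusted p of 0.00300. Its high peak in aDG saline 4, 20.8 CPM, was matched by the highest pDG value in the library of the same set, pDG saline 4 with 2.07 CPM. The left-out library, labelled aDG, had 0.0703 CPM.

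The second group was lower in the aDG than in the pDG in all 11 fitted log2 differences without the filter, with a median of -1.83, and none was called. Of these 11 genes 8 had an unadjusted edgeR p under 0.05, where 2660 of all 16794 genes did. The rule and the grouping used these dentate values, and 10 of the 11 genes were highest in pDG saline 5. The signs and p-values of the group are therefore a description. Without pDG saline 5, 0 of the 10 genes tested with the filter were positive, with a median of -0.93. Over all members tested with the filter, 8 of 53 (15.1%) had an unadjusted p under 0.05, against 17.2% of all genes. That number was 1 of 51 without pDG saline 5, against 20.3% of all genes. It was 2 of 52 without pDG betamethasone 3, against 16.2% of all genes. Without pDG betamethasone 1 it was 22 of 50, against 18% of all genes. The median log2 difference of the members then turned from -0.04 to 0.72. This last fit kept aDG betamethasone 4, and 27 of the 27 genes of the first group tested in it were positive. Leaving out aDG betamethasone 4 instead gave the opposite: 0 of the 30 genes of the first group tested were positive. The median log2 difference of the members was then -0.75. ENSMFAG00000039111 had a log2 difference of -2.29 ± 1.23 (SE) with an edgeR adjusted p of 0.357.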

How the data were processed

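RNA from 4 brain regions was sequenced in 44 libraries. The deposited files hold the authors' whole-number counts of reads per gene in 3 strand columns, which have the layout of STAR's gene table; STAR is named in the submitters' processing notes, while its version, the annotation and any trimming are not given in the labels or headers used. The counts of the last column, which held most gene reads, were used: 17452 gene rows, with 139 repeated identifiers summed, gave 17293 identifiers, and the rows that name no gene were dropped (24.5% to 37.2% of mapped reads had no gene, and 11% to 31.4% of all reads were unmapped). CPM is the count scaled by the sum of the gene rows. No coordinates, gene names or sequences were used.

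The members and lists were chosen with earlier results of these data known. Tests used edgeR 4.0.16 in R 4.3.3 on the counts: TMM scaling, the filterByExpr filter, robust fits and quasi-likelihood F tests; p-values were adjusted by Benjamini and Hochberg over every gene in the fit, with a threshold of 0.05. Betamethasone was compared with saline in the aDG (5 against 5 libraries, the library with title number 1662 left out) and in the pDG (5 against 6), and the aDG with the pDG with treatment in the model. The procedure was tested on simulated data with the same spread for every gene and no extreme library. That simulation does not cover genes as patchy as the members. Differences are log2 values. Alternatives were DESeq2 1.42.0, other scalings and filters, the unstranded counts, the left-out library kept, each library left out in turn and other limits for the rule. Libraries are not labelled as separate animals, so p-values measure only the spread between libraries, which may be technical. Within groups, all pairs of libraries were farther apart than counting error gives, with a chi-square of 20.0 to 442 per degree of freedom over 96 pairs.

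Genes named in the text were the example ENSMFAG00000039111, the 4 members with the highest CPM, the 2 highest members in each of the libraries in which most members peak (4 libraries because of a tie), the 2 at 10 times their median in most libraries, the 2 nearest the limit on either side, the 3 most like the example, the 2 highest in the left-out library, in the BLA and in the ACC, and the member with the smallest p in each test; others are said to be chosen after their values were seen. Figures and tables were made with Python 3.11.15, pandas 2.3.3, NumPy 2.4.6 and SciPy 1.17.1.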

Additional observations from a re-analysis of the deposited data

Results flagged for a closer look

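For 13 of the genes named in the text, the highest and the lowest library of each group of 4 to 6 were checked. In 51 of 104 gene-by-group values the highest library was farther from its neighbour, relative to the group's range, than Dixon's 95% critical value. Chance flags about 1 in 20 groups, but 12 of the genes are members chosen for having an extreme dentate library and ENSMFAG00000039111 was named as an example of that pattern, so their dentate flags are a description.

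ENSMFAG00000039111 stood apart at 291.8 CPM in aDG betamethasone 2, 4425 CPM in pDG saline 5 and 8.41 CPM in BLA saline 3. The flagged values of ENSMFAG00000044692 were 19.1 CPM in aDG saline 6 and 94.3 CPM in pDG saline 5. For ENSMFAG00000032558, the libraries that stood apart had 42.6 CPM in aDG betamethasone 4, 62.7 CPM in pDG betamethasone 1, 4.43 CPM in BLA betamethasone 4 and 6.33 CPM in ACC saline 1. Libraries far from the rest of their group for ENSMFAG00000030646 had 2.18 CPM in aDG betamethasone 2, 16.8 CPM in pDG betamethasone 3 and 39.8 CPM in pDG saline 5. ENSMFAG00000036375 stood apart at 23.2 CPM in aDG betamethasone 4, 37.1 CPM in pDG betamethasone 1 and 5.34 CPM in ACC saline 1. The same libraries recur: pDG saline 5 for ENSMFAG00000039111, ENSMFAG00000044692 and ENSMFAG00000030646, and aDG betamethasone 4, pDG betamethasone 1 and ACC saline 1 for ENSMFAG00000032558 and ENSMFAG00000036375.

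The flagged values of ENSMFAG00000003253 were 14.7 CPM in aDG betamethasone 4 and 20.8 CPM in aDG saline 4. For ENSMFAG00000000188, the libraries that stood apart had 4.95 CPM in aDG betamethasone 2, 3.3 CPM in pDG betamethasone 2, 2.94 CPM in BLA betamethasone 2, 14.3 CPM in aDG saline 4, 4.64 CPM in pDG saline 4, 10.8 CPM in BLA saline 4 and 7.2 CPM in ACC saline 4. Libraries far from the rest of their group for ENSMFAG00000041799 had 7.26 CPM in aDG betamethasone 4, 16.4 CPM in pDG betamethasone 1, 5.33 CPM in ACC betamethasone 1, 35.9 CPM in aDG saline 6 and 104.6 CPM in ACC saline 6. ENSMFAG00000031821 stood apart at 3.69 CPM in aDG betamethasone 4, 3.3 CPM in pDG betamethasone 4, 1.25 CPM in ACC betamethasone 5, 21.3 CPM in aDG saline 6 and 19.5 CPM in BLA saline 6. The flagged values of ENSMFAG00000037060 were 5.33 CPM in aDG betamethasone 2, 7.46 CPM in pDG betamethasone 2, 3.93 CPM in ACC betamethasone 2 and 74.8 CPM in BLA saline 5. For ENSMFAG00000040177, the libraries that stood apart had 9.19 CPM in aDG saline 2, 8.22 CPM in pDG saline 2, 11.2 CPM in BLA saline 2 and 12.3 CPM in ACC saline 2. Libraries far from the rest of their group for ENSMFAG00000024075 had 2.99 CPM in BLA betamethasone 1, 5.6 CPM in pDG saline 4, 8.06 CPM in BLA saline 4 and 6.27 CPM in ACC saline 4. ENSMFAG00000030155 stood apart at 2.86 CPM in BLA betamethasone 1, 5.74 CPM in aDG saline 4, 5.06 CPM in pDG saline 4, 6.82 CPM in BLA saline 4 and 5.45 CPM in ACC saline 4. Outside the dentate gyrus the rule used only medians. The highest flagged values there were those of ENSMFAG00000041799 in ACC saline 6 and ENSMFAG00000037060 in BLA saline 5. Both genes, and ENSMFAG00000040177, were named for their high levels in these regions. ENSMFAG00000024075 and ENSMFAG00000030155 were singled out after their values were seen. Their flags outside the dentate gyrus are thus a description too.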

How the results depend on the processing

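The count of 63 genes depended on the limits of the rule and on 1 pair of libraries. It was 101 at 5 times and 35 at 20 times the median, 130 with a highest value of at least 2 CPM and 37 with at least 10 CPM. It was 95 with no limit on the other regions and 37 where the second highest library also had to reach both 5 CPM and 10 times the median. In alternatives chosen after seeing the data it was 24 without pDG betamethasone 1 and aDG betamethasone 4, 18 without those and pDG saline 5, and 73, the example included, with a limit of 3 CPM in the other regions. Leaving out each library in turn gave 47 to 64, with 47 without pDG betamethasone 1. DESeq2 called 39 genes for treatment in the aDG, 89 in the pDG and 991 between the aDG and the pDG, against 1, 1 and 562 with edgeR. Leaving out each library gave 0 to 7, 0 to 7 and 340 to 920 genes; between the aDG and the pDG, 920 were called without pDG saline 5 and 340 without pDG betamethasone 2. That comparison gave 351 genes with aDG saline 5 kept and, added after seeing the data, 352 without pDG betamethasone 1 and aDG betamethasone 4. ENSMFAG00000003253 kept its call under every alternative run for that comparison, with log2 differences of 2.70 to 3.67 when 1 library was left out. The treatment difference of ENSMFAG00000039111 in the pDG was -1.05, and -2.51 to 0.75 when 1 library was left out, with -2.51 without pDG betamethasone 3 and 0.75 without pDG saline 5. The causes of these changes were not tested.

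Taking title number as a replicate block, edgeR called 2350 of 14416 genes and 3 of 53 members between the aDG and the pDG. The share was thus lower among the members than among all genes. Over 10 pairs of same-numbered libraries the correlations of their deviations were -0.0361 to 0.722; 8 exceeded 0.1 and were the best of their group, and the exceptions hold pDG betamethasone 1 and aDG betamethasone 4. The labels do not say what the numbers mark, so this is a hint from the data, not the design, and the model without the block was kept. Genes at a few CPM rest on few reads in the shallower libraries, and a level of 0 means only that no read was counted at that depth.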
